A study of Homo sapiens with 40 samples.

Results

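The genes examined here encode 9 members of the AP-1 family of transcription factors: FOS, FOSB, FOSL1 and FOSL2 of the FOS group, JUN, JUNB and JUND of the JUN group, and the related factors ATF3 and BATF3. They are 9 of 20020 protein-coding genes in GENCODE 44. A peak of H3K27ac, an acetylation of histone H3 found at active promoters and enhancers, or of CTCF, a DNA-binding protein that anchors chromatin loops, was counted with a member if it lay within 2 kb of an annotated start site of that gene, in its gene body, or closer to it than to any other protein-coding gene and within 100 kb. By this rule 20 of 51489 H3K27ac peaks and 20 of 51457 CTCF peaks belonged to the AP-1 genes. H3K27ac peaks lay at 8 places next to a start site and at 12 distal places. CTCF peaks lay at 10 places next to a start site, at 1 inside a gene body and at 9 distal places.

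The libraries came from EndoC-βH3, a human beta-cell line of fetal pancreatic origin whose immortalizing hTERT and SV40 Large T transgenes can be cut out by a tamoxifen-inducible recombinase (CreER). Senescent cells had received 4-hydroxytamoxifen (4-OHT) for 3 weeks, which excises those transgenes, and control cells had not, so that loss of hTERT and Large T, the drug and senescence cannot be told apart. Both states came from the same transgenic line, in which the transgenes are present before excision, and the labels call the genotype WT. H3K27ac and CTCF had each been measured in 3 senescent and 3 control libraries, all from a single cell line, and nothing in the labels says that they were separate cultures, so the errors measure only the spread between these libraries. The other libraries served to list enhancers of each state and regions bound by the retinoblastoma protein Rb. Because the deposited tables hold a mean over libraries and a fold change but no value for a single library, levels are given as the mean of each state that these values imply, and the error is the standard error (SE) of the log2 fold change of senescent over control cells.

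AP-1 factors are leucine-zipper proteins that bind DNA as pairs. FOS proteins need a JUN partner, JUN proteins also pair with each other, and ATF3 and BATF3 join JUN proteins or, for ATF3, act as a homodimer that often represses. The pairs recognise the TPA response element (TRE), TGACTCA or its complement TGAGTCA, and the related cAMP response element (CRE), TGACGTCA. Many of the genes are immediate early genes, switched on within minutes by growth factors, calcium or stress, and in fibroblasts AP-1 is known as an organizer of the enhancers used in senescence. ATF3 is known in beta cells as a stress-induced gene.

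The promoter windows run from 250 bases before to 50 bases after a start site. They are shown for the genes whose start-site H3K27ac was lower in senescent cells at an adjusted p under 0.05 and any fold. JUN and JUND, whose start-site H3K27ac did not pass that threshold, are shown beside them. The windows were thus chosen by H3K27ac values, and a link between these letters and H3K27ac was not tested. Capitals mark the TRE, the CRE, the CRE core hexamer TGACGT or its complement ACGTCA, and TGACATCA or its complement TGATGTCA, the variant known from the JUN promoter. All but the canonical ATF3 window, which was read from hg38, are RefSeq windows on GRCh38.p14, and each is written 5′ to 3′ along the gene.
ATF3 canonical start, chr1:212608511-212608810, plus strand: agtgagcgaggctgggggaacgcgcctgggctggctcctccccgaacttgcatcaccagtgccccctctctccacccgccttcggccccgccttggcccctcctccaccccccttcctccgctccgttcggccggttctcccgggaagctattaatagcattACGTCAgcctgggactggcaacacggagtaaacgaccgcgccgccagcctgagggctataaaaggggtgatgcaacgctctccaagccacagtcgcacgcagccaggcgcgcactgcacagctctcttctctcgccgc
ATF3 upstream start, chr1:212565157-212565456, plus strand: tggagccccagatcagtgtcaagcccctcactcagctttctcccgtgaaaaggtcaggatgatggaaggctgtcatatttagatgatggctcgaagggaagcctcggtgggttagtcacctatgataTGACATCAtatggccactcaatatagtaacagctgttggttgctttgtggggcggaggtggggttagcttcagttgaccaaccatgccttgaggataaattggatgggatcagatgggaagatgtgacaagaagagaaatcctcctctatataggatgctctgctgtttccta
FOS, chr14:75278578-75278877, plus strand: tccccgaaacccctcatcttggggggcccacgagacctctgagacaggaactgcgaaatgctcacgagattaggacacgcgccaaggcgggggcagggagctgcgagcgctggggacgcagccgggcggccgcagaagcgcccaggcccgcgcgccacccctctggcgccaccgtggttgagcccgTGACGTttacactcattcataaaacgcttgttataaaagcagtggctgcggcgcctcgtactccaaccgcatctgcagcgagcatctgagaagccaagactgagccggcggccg
FOSB, chr19:45467746-45468045, plus strand: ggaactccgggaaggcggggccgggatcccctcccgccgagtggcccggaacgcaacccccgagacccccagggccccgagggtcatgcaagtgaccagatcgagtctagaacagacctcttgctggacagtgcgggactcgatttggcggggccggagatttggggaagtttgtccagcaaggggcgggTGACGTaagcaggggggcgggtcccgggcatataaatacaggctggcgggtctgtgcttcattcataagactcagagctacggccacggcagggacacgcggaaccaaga
FOSL2, chr2:28392608-28392907, plus strand: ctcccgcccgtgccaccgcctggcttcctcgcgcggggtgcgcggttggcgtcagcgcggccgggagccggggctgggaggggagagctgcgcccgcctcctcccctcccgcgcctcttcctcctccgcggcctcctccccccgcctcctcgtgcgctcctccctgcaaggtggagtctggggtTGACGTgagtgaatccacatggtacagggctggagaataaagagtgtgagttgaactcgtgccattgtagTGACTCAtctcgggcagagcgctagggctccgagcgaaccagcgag
JUN, chr1:58783998-58784297, minus strand: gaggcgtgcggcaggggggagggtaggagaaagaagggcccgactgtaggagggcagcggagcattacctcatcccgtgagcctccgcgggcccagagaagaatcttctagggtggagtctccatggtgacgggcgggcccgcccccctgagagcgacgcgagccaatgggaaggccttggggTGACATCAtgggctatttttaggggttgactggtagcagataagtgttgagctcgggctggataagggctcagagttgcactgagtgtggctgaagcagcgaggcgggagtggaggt
JUND, chr19:18281573-18281872, minus strand: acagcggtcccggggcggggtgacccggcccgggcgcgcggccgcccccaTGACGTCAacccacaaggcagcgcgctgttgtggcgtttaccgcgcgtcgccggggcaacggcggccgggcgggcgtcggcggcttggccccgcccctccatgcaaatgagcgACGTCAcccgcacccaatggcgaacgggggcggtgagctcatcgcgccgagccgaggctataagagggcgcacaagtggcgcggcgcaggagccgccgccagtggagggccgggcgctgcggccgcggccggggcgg

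In these windows the hexamer began 64 bases upstream of the start site in FOS, 60 in FOSB and 66 in FOSL2, and 88 upstream of the canonical ATF3 start. FOSL2 also held a TRE just inside the transcript. JUND held a full CRE 200 bases upstream, which contains the hexamer on both strands, and another hexamer 87 bases upstream. The variant TGACATCA stood 67 bases upstream in JUN and 123 bases upstream of the upstream ATF3 start. The JUNB window and a further ATF3 window, chr1:212614768-212615067, neither of them shown, held none of these letters. Of all 35116 RefSeq promoter windows of this length, 4.95% held a TRE on either strand, 1.85% a CRE, 7.98% the hexamer and 2.61% the variant. These matches are descriptions of letters, and no AP-1 binding was measured here.

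Among the AP-1 genes, H3K27ac was lost at ATF3 alone, at both of its start-site peaks, and no peak of any member was gained. A peak was called where the fold change exceeded 1.5 with an adjusted p under 0.05. That ATF3 stood alone depended on the scaling: with fold changes centred on the peaks with the highest counts, a shift of 0.08 on the log2 scale, 5 peaks and 3 genes were lost, and the added ones were the start-site peaks of FOS and FOSB and a distal JUN peak. Over all H3K27ac peaks 9.47% were gained and 13.1% lost by the same rule, against 0 and 2 of the 20 AP-1 gene peaks. The median log2 fold change was -0.07 over the 20 peaks and 0.01 over all peaks.

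At the canonical ATF3 start site (gene at chr1:212565334-212620777, plus strand, hg38) the peak chr1:212606643-212610010 covered the start site and an exon of ATF3. The implied mean normalised count was 998.4 in control and 332.2 in senescent cells. The log2 fold change was -1.59 (SE 0.095, n = 3 and 3, adjusted p = 1.19e-59, DESeq2 Wald test), a level 0.333 times that of control cells. Only 124 of the 13525 protein-coding genes with a start-site H3K27ac peak had a lower log2 fold change at their highest such peak. The 95% interval ran from -1.77 to -1.40, and no other start-site peak of the 9 genes but the upstream peak of ATF3 had an interval that went below -0.75.

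The other lost peak, chr1:212566247-212567683, lay 41.8 kb upstream of the canonical start, inside the ATF3 gene and within 2 kb of its upstream start. Its implied mean fell from 168.6 to 92.6 normalised counts, with a log2 fold change of -0.86 (SE 0.18, adjusted p = 1.04e-05). The 4 further ATF3 peaks lay upstream of the gene and none was called. The strongest of them, 49.8 kb upstream of the canonical start at 955.0 normalised counts, had a log2 fold change of 0.02 (SE 0.083, adjusted p = 0.859). A distal peak 90.0 kb upstream, chr1:212517825-212519615, was lower, with implied means of 194.8 and 148.8 and a log2 fold change of -0.39 (SE 0.15, adjusted p = 0.0306), a change that did not reach 1.5-fold. The 2 others, at 93.3 and 51.8 kb, held 30.9 and 16.9 counts, and their intervals reached from -0.50 to 0.99 and from -1.53 to 0.41, so that little can be said of them at this depth.

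**Figure D1:**
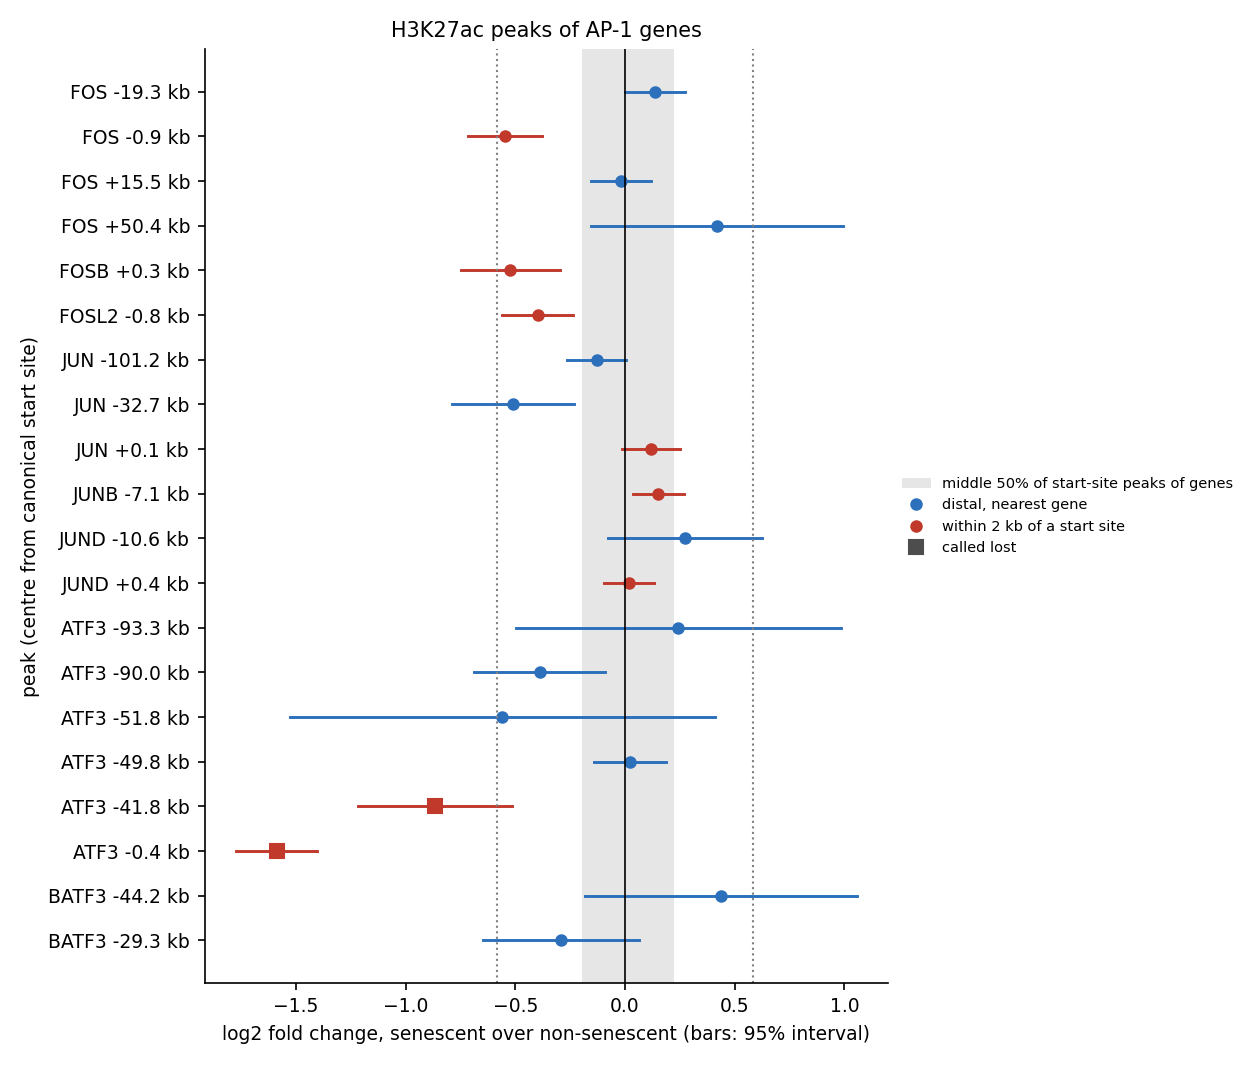
Log2 fold change of H3K27ac (horizontal axis, senescent over control) with its 95% interval for each of the 20 AP-1 gene peaks, named by gene and distance of the peak centre from the canonical start site in kb. Squares mark the 2 lost peaks, both of ATF3, dotted lines a fold change of 1.5, and the grey band the middle of the start-site peaks of all genes, from -0.20 to 0.22. The band does not describe distal peaks. The same span over all H3K27ac peaks was wider, from -0.39 to 0.34.

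At the start sites of the FOS group H3K27ac was lower without reaching 1.5-fold as deposited. Centred on the peaks with the highest counts, FOS (-0.62) and FOSB (-0.60) passed 1.5-fold and FOSL2 (-0.48) did not. With the GC trend removed, FOS (-0.55) and FOSB (-0.53) hardly moved, while FOSL2 shrank to -0.26 (adjusted p = 0.00643). FOS, the founding immediate early gene of the family, carried chr14:75275839-75280065 over its start site. Its implied mean was 2053 in control and 1406 in senescent cells (log2 fold change -0.55, SE 0.085, adjusted p = 1.80e-09). FOSB, whose protein pairs with JUN and whose shorter form accumulates in stimulated neurons, carried chr19:45466756-45469834, and its mean went from 393.0 to 273.3 (log2 fold change -0.52, SE 0.11, adjusted p = 3.48e-05). FOSL2, which encodes FRA-2, a factor that lasts longer after stimulation than FOS, carried chr2:28390088-28394013, which also overlapped the antisense RNA FOSL2-AS1. Its mean went from 945.0 to 717.4 (log2 fold change -0.40, SE 0.083, adjusted p = 1.26e-05). The 95% intervals of all 3 lay below 0. FOSL1, which encodes FRA-1, had no H3K27ac and no CTCF peak, and the H3K27ac peak closest to its start, 8.97 kb away, was nearest to FIBP.

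At the start sites of the JUN group no H3K27ac peak was lower in senescent cells at an adjusted p under 0.05. JUN, the general partner of FOS proteins, carried chr1:58781670-58786314 with implied means of 2078 in control and 2256 in senescent cells (log2 fold change 0.12, SE 0.066, adjusted p = 0.147). JUND, the JUN gene with the steadiest expression in resting cells, carried chr19:18277748-18284689 at 4655 and 4715 (log2 fold change 0.02, SE 0.058, adjusted p = 0.830). The JUNB peak, chr19:12773707-12795018, was 21312 bp wide and also covered the start site of HOOK2, so that the values cannot be given to JUNB alone. Its means were 7921 and 8796 (log2 fold change 0.15, SE 0.059, adjusted p = 0.0308), and the difference was no longer past the threshold when the fold changes were centred on the peaks with the highest counts (0.07, adjusted p = 0.340). The 95% intervals as deposited ran from -0.01 to 0.25 at JUN and from -0.10 to 0.13 at JUND. They leave out the choice of scaling: centring gave 0.04 at JUN and -0.06 at JUND, and removing the GC trend 0.15 and 0.05.

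As deposited, the intervals of FOS, FOSB and FOSL2, which reached at most -0.23, did not meet those of JUN, JUNB and JUND, which began at -0.10. These intervals leave out the choice of scaling and of GC correction. No test of the difference between genes was possible from the deposited values, because estimates from the same libraries are not independent. With ATF3 included, 4 of the 7 members with a start-site peak were lower and 1, JUNB, was higher at an adjusted p under 0.05 and any fold, where 19.7% of the highest start-site peaks of all genes were lower and 25.0% higher. By the rule with a fold above 1.5, 1 of the 7 was lost and 0 gained, against 9.12% and 3.34% of genes. A count of 7 genes is too small to set the AP-1 genes apart from other genes by these shares.

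**Figure D2:**
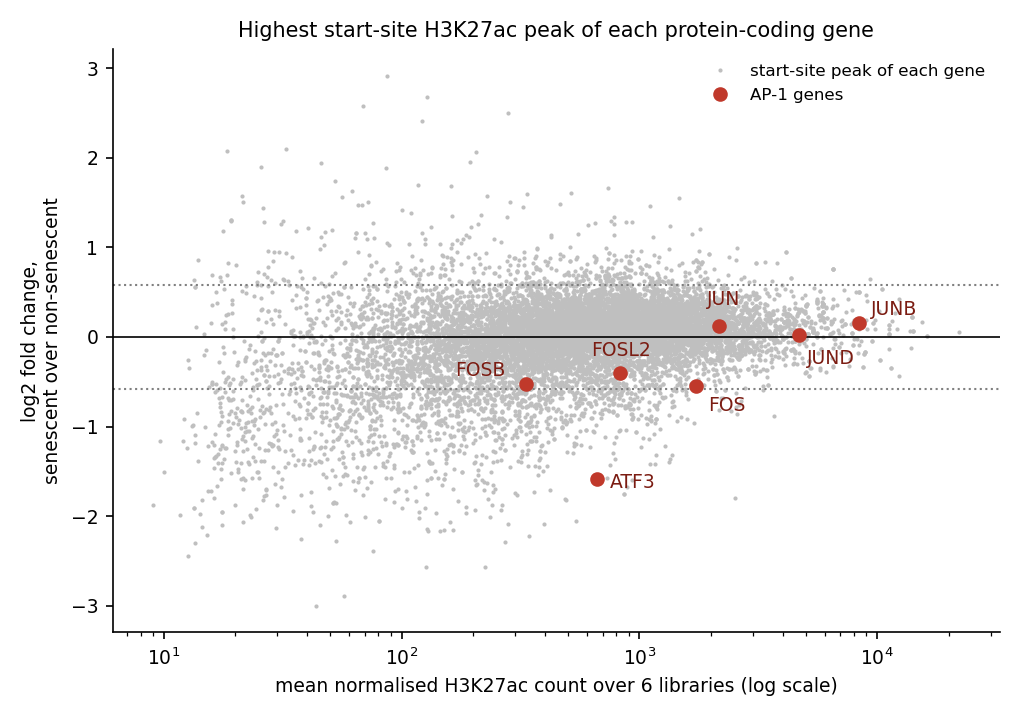
Mean normalised H3K27ac count over 6 libraries (horizontal log axis) and log2 fold change of senescent over control (vertical axis) at the highest start-site peak of each of 13525 protein-coding genes (grey), with the 7 AP-1 genes that have such a peak in red and dotted lines at a fold change of 1.5. ATF3 stands at -1.59, FOS, FOSB and FOSL2 between -0.55 and -0.40, and JUN, JUNB and JUND between 0.02 and 0.15.

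Levels were compared per kb of peak. JUND had 674.8 mean normalised counts per kb at its start site, more than 99.6% of genes with a start-site peak. JUN had 466.5, FOS 409.1 and JUNB 392.2 per kb, more than 96.5%, 93.8% and 92.3% of genes. FOSL2 followed with 211.7 and ATF3 with 197.5, both near the median of all genes of 184.1, and FOSB was lowest with 108.2. BATF3, a partner of JUN proteins best known from dendritic cells, had no H3K27ac peak at its start sites. Since these means pool both states, they place ATF3 between its control and its senescent level.

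**Figure D3:**
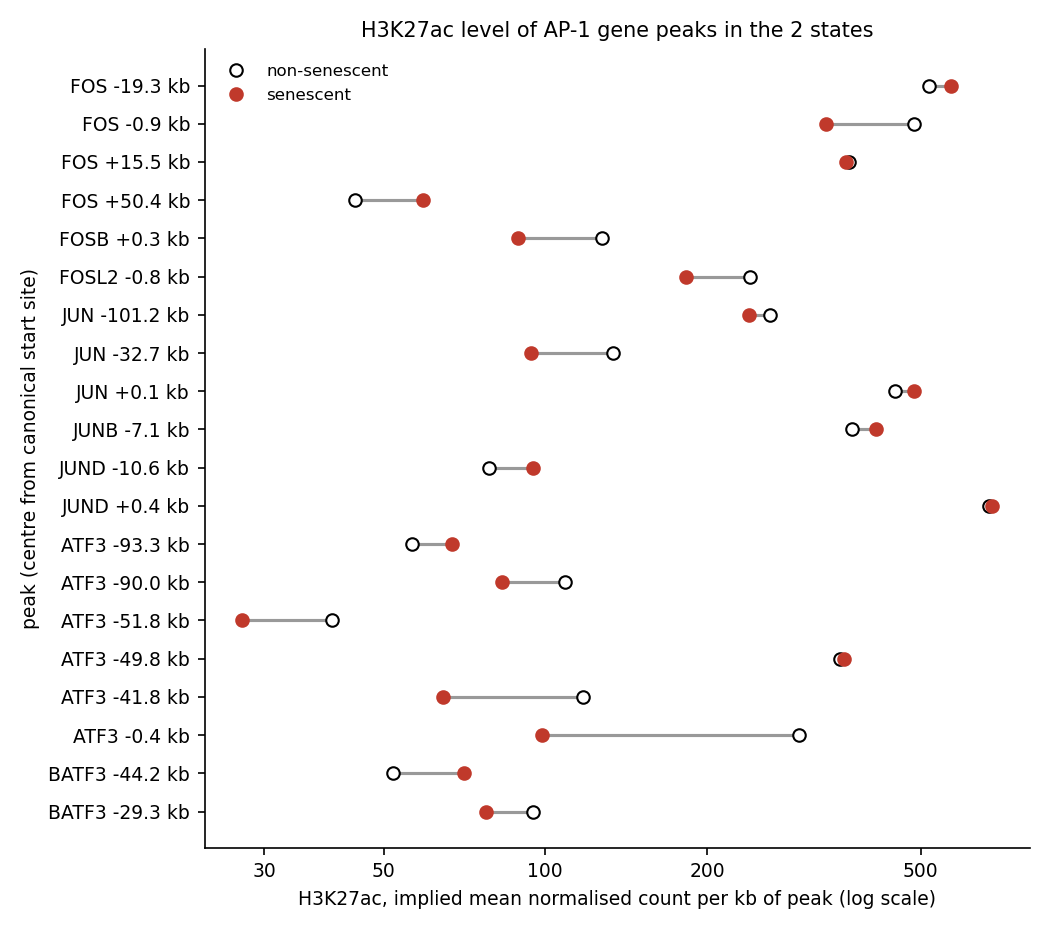
Implied mean normalised H3K27ac count per kb of peak (horizontal log axis) in control (open) and senescent cells (red) for each of the 20 AP-1 gene peaks, named by gene and distance from the canonical start site in kb. The longest line is that of the ATF3 start-site peak, whose mean over the whole peak went from 998.4 to 332.2, while both points of JUND almost coincide.

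Of the 12 distal H3K27ac peaks none was called. A JUN peak 32.7 kb upstream, chr1:58815794-58817621, in the long noncoding gene LINC01135, went from 244.8 to 171.8 (log2 fold change -0.51, SE 0.14, adjusted p = 0.00145), while the JUN start-site peak stood at 0.12. Around FOS the distal peaks 19.3 kb upstream and 15.5 kb downstream held 2824 and 1571 mean counts, the former more than the 1729 of the FOS start site itself. Their log2 fold changes were 0.14 (SE 0.070, adjusted p = 0.106) and -0.02 (SE 0.070, adjusted p = 0.860), and neither passed the test. Both intervals, from 0.00 to 0.28 and from -0.16 to 0.12, lay above the upper bound of -0.38 at the FOS start site. A weak FOS peak 50.4 kb downstream held 52.7 mean counts, with an interval from -0.15 to 0.99. The distal peaks of JUND and BATF3 had adjusted p-values between 0.197 and 0.279.

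Enhancers, which the authors had listed for each state from H3K27ac and H3K4me1, overlapped 5 of the 20 AP-1 gene peaks (25%, 95% Wilson interval 11.2 to 46.9%, counting error only). Of these, 4 were listed in both states: the FOS peak 19.3 kb upstream, the JUN peak 101.2 kb upstream, the JUND peak 10.6 kb upstream and a BATF3 peak 29.3 kb upstream that overlapped an exon of NSL1. The ATF3 peak 90.0 kb upstream overlapped an enhancer listed in control cells alone, chr1:212517886-212519556, and 0 peaks overlapped an enhancer listed in senescent cells alone. Over all H3K27ac peaks 19.9% overlapped enhancers of both states, 8.33% of control cells alone and 5.09% of senescent cells alone. All 5 overlapping AP-1 gene peaks were distal. The study defined enhancers as lying outside promoters, and these shares were not matched for the part of peaks at start sites. The tables and the lists share their H3K27ac libraries and are therefore not independent. The JUN peak over listed enhancers, chr1:58882578-58887922, held 1399 implied mean counts in control and 1279 in senescent cells (log2 fold change -0.13, SE 0.069, adjusted p = 0.125).

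CTCF was lost at the start sites of ATF3 and BATF3, which lie close together on chromosome 1, and 0 CTCF peaks of the AP-1 genes were gained. For CTCF a fold change above 1.5 was called where the adjusted p was under 0.2. The study used these thresholds on peaks that held a CTCF motif. Here they were applied to all deposited peaks with an adjusted p, so a call here need not be one of the study's. Over all CTCF peaks with an adjusted p, 4.28% were lost and 2.99% gained, and at the highest start-site peaks of genes 5.04% were lost and 0.751% gained, against 2 and 0 of the 5 AP-1 genes with such a peak. At ATF3 the peak chr1:212608760-212609978 reached from the start site into the gene and its implied mean went from 217.3 to 133.3 (log2 fold change -0.70, SE 0.19, n = 3 and 3, adjusted p = 0.0185). It lay within the H3K27ac peak that was lost. At BATF3 (chr1:212686417-212699840, minus strand) the peak chr1:212698854-212699954 covered the start site and went from 169.6 to 108.8 (log2 fold change -0.64, SE 0.19, adjusted p = 0.0322), with no H3K27ac peak there.

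Both lost CTCF peaks were rich in G and C, at 66.4% and 70.1%. The trend came from CTCF peaks clear of H3K27ac peaks, promoters and listed enhancers, split into 40 bins by GC content. In the bin richest in G and C the median log2 fold change was -0.33. Beyond the centre of that bin the trend was held flat, so both peaks took this median of the whole bin. Any change of the trend with GC content inside the bin was not resolved. With this trend over GC content removed, the values were -0.37 (adjusted p = 0.419) at ATF3 and -0.31 (adjusted p = 0.529) at BATF3, and neither was called. The median over the highest start-site CTCF peaks of all genes was -0.14 before this correction. Of CTCF peaks of the AP-1 genes, 7 of 20 held the core of the CTCF motif with at most 1 mismatch, against 35.0% of all CTCF peaks. The BATF3 peak was among them, and the best match in the ATF3 peak had 3 mismatches.

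The best core matches are shown for the lost BATF3 peak, for the FOSL2 peak with the lowest adjusted p among those with a higher value in senescent cells, and for the strongest CTCF peak of the 9 genes, at FOS. Capitals mark the matched core with 10 bases of hg38 sequence on either side, 5′ to 3′ on the strand of the match.
BATF3, chr1:212699165-212699198, plus strand: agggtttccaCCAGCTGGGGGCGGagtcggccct
FOSL2, chr2:28396944-28396977, minus strand: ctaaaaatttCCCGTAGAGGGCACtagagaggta
FOS, chr14:75296256-75296289, minus strand: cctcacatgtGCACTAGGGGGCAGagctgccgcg

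The FOSL2 peak, chr2:28396088-28397861, 4.12 kb downstream of the canonical start, went from 107.4 to 144.1 (log2 fold change 0.42, SE 0.19, adjusted p = 0.206) and was not called. With the GC trend removed it stood at 0.27 (adjusted p = 0.607). The FOS peak, chr14:75294838-75297222, lay 17.2 kb downstream and went from 516.3 to 441.6 (log2 fold change -0.23, SE 0.12, adjusted p = 0.313). The other FOSL2 start-site peaks had log2 fold changes of 0.05 (SE 0.38) and -0.20 (SE 0.18), those of JUN -0.25 (SE 0.19) and -0.18 (SE 0.19), those of JUND -0.07 (SE 0.17) and -0.25 (SE 0.27), and a further BATF3 peak -0.37 (SE 0.38). With the GC trend removed, 1 of the JUN values (0.07), both of JUND (0.04 and 0.08) and the lower FOSL2 value (0.14) turned positive and the other JUN value came to -0.02, so no direction can be given for them. Their adjusted p-values ran from 0.474 to 0.959. A distal peak each of FOS, JUN and ATF3 were left without an adjusted p by the authors and held 11.5 to 15.2 mean counts. By the assignment rule FOSB, FOSL1 and JUNB had no CTCF peak. The wide JUNB H3K27ac peak did hold CTCF peaks that were nearest to HOOK2. The strongest, chr19:12776486-12778518, held 401.8 mean counts (log2 fold change -0.27, SE 0.12, adjusted p = 0.201) and was not called.

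**Figure D4:**
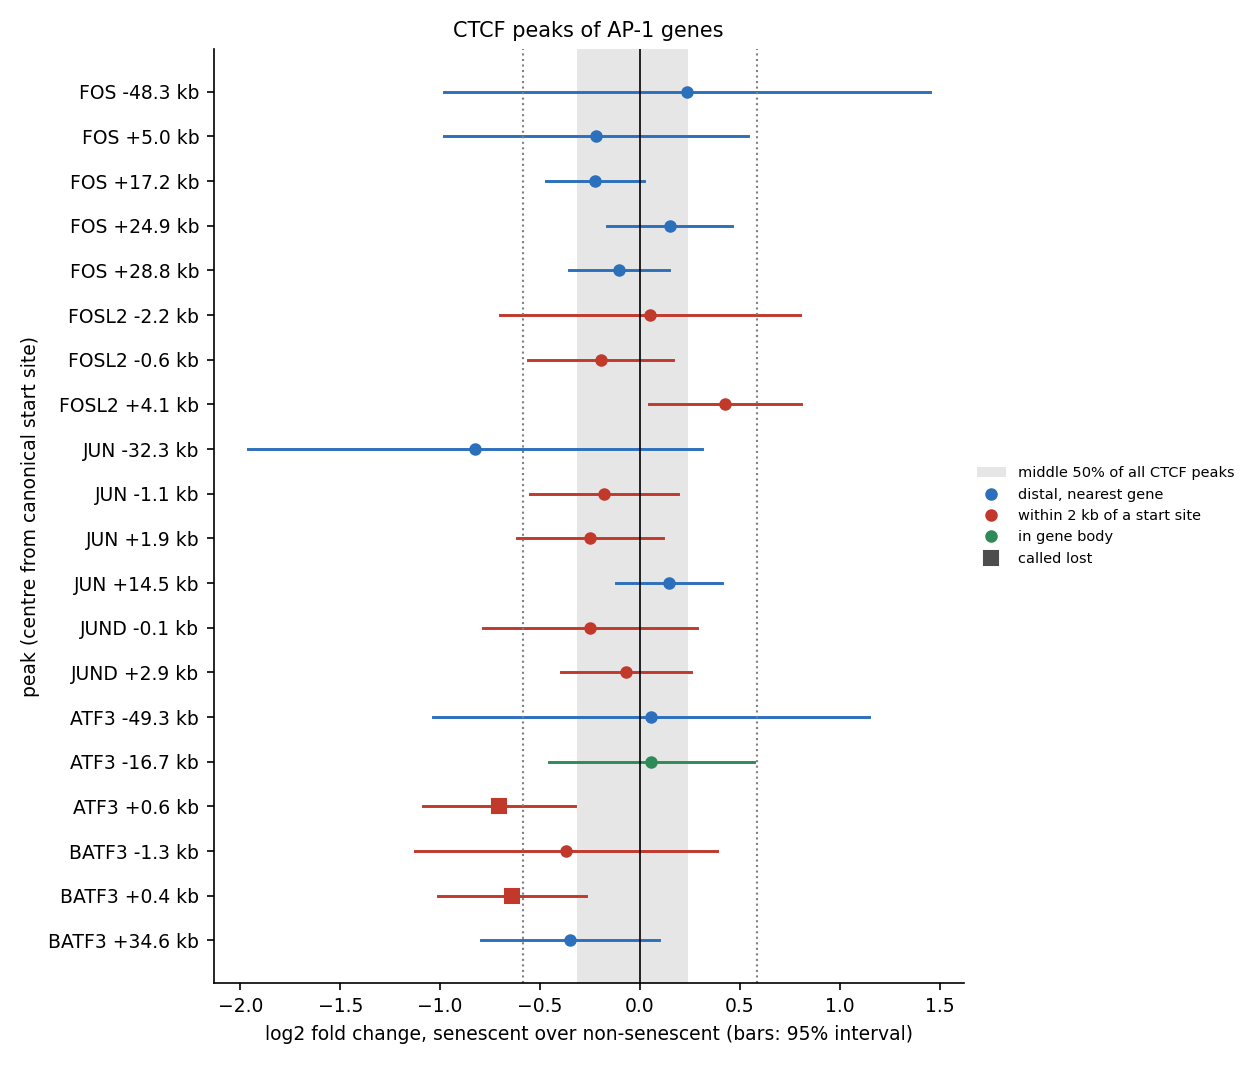
Log2 fold change of CTCF (horizontal axis, senescent over control) with its 95% interval for the 20 CTCF peaks of AP-1 genes, named by gene and distance of the peak centre from the canonical start site in kb. Squares mark the lost peaks at ATF3 (-0.70) and BATF3 (-0.64), dotted lines a fold change of 1.5 and the grey band the middle of all CTCF peaks.

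The TRE was held by 6 of the 20 H3K27ac peaks of the AP-1 genes (30%, 95% Wilson interval 14.6 to 51.9%), a share that the interval does not separate from the 28.1% of all peaks or the 36.0% at the rates of peaks of like width. The JUNB peak held 7 copies. The lost peak at the upstream ATF3 start held 1 and the one at the canonical start 0. A CRE was in 3 of the 20 peaks, those over the start sites of FOSB and JUND and the ATF3 peak 49.8 kb upstream, and in 2.22% of all peaks. These CRE shares were matched neither for peak width nor for start sites. The AP-1 gene peaks were wider, with a median of 2878 bp against 1742 bp over all peaks, so the shares do not show an excess of CREs. Over the whole table, peaks with a TRE were gained in 11.1% and lost in 13.3%, and peaks without it in 8.84% and 13.1%. In 4 classes of peak width, from narrow to wide, peaks with a TRE were gained in 5.14%, 15.8%, 13.1% and 9.22%, and peaks without it in 4.60%, 12.8%, 10.9% and 7.37%. They were lost in 6.60%, 17.3%, 18.6% and 9.98% with a TRE, and in 7.76%, 18.7%, 15.6% and 10.0% without, with no common direction.

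The wider pathway was described by the highest start-site H3K27ac peak of each gene in 4 lists. Of 13 partners that pair with AP-1 proteins, 10 had a start-site peak and the median log2 fold change was 0.08. MAFG, a small MAF protein, was gained (0.65, SE 0.064, adjusted p = 6.33e-23), and its relative MAFF was lost (-0.70, SE 0.11, adjusted p = 4.36e-09). The MAFG peak was wide, with 4318 mean counts at 277.2 per kb, and start sites of other genes inside it were not looked for. Over all genes with a start-site peak 3.34% were gained and 9.12% lost. Of 22 genes of the kinase cascades and serum response factor complexes that act on AP-1 genes, 19 had a peak (median 0.05), 0 were gained, and MAPK7, which encodes ERK5, was lost (-0.68, SE 0.092, adjusted p = 3.67e-12). At any fold 3 of these genes were higher and 3 lower, where 25.0% and 19.7% of all genes with a start-site peak were. The higher ones were MAPK8, which encodes the JUN kinase JNK1 (0.40, SE 0.080, adjusted p = 6.09e-06), MAPK8IP1 (0.46) and MAP2K7 (0.41). MAP3K1 (-0.30) and ELK4 (-0.28) were lower beside MAPK7, and of all these only MAPK7 reached 1.5-fold.

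Of 24 other immediate early genes, 20 had a start-site peak, with 1 gained and 3 lost and a median of -0.09. EGR4, a zinc-finger factor, was gained (1.25, SE 0.093, adjusted p = 1.43e-38). DUSP4, a phosphatase of MAP kinases (-0.63, SE 0.077, adjusted p = 1.05e-14), KLF4 (-0.59, SE 0.066, adjusted p = 1.91e-17) and NPAS4, an activity-induced factor (-1.76, SE 0.39, adjusted p = 4.52e-05), were lost, NPAS4 at 37.9 mean counts. At any fold 2 of these genes were higher and 7 lower. Over all genes with a start-site peak 3.34% were gained and 9.12% lost, and at any fold 25.0% were higher and 19.7% lower. Of 26 genes known as AP-1 targets in other cells, among them the matrix metalloproteinases MMP1 and MMP9, only HBEGF, EZR and KRT18 had a start-site peak and none of the 3 was called. The matrix metalloproteinase genes, IL6 and CXCL8 had none.

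**Figure D5:**
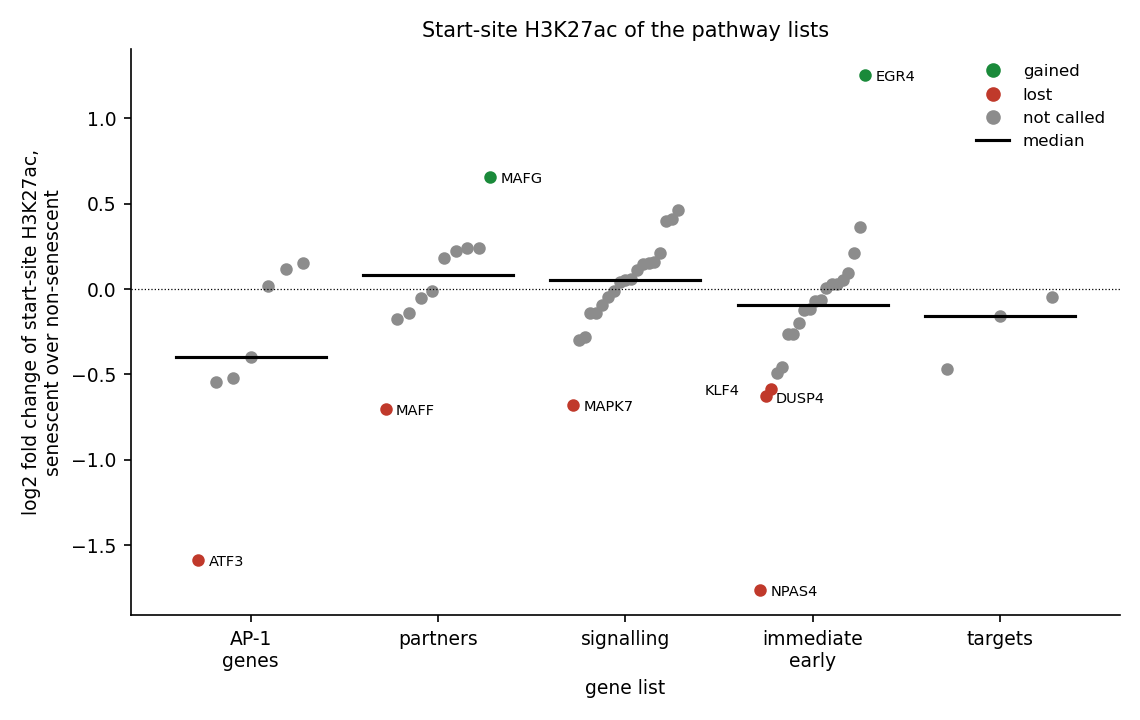
Log2 fold change of H3K27ac (vertical axis, senescent over control) at the highest start-site peak of each gene in the AP-1 list and the 4 pathway lists, 1 point a gene, with gained genes green, lost genes red and the median as a bar. The bars stand at -0.40 for the 7 AP-1 genes, 0.08 for partners, 0.05 for signalling, -0.09 for other immediate early genes and -0.16 for the 3 targets with a peak.

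The label of the cells was checked against markers. All 14 beta-cell genes, among them INS and PDX1, had a start-site H3K27ac peak, with 64.5 to 536.8 counts per kb, and 1, IAPP, was gained. Of 12 markers of other cells 4 had a peak, with 50.3 to 298.4 per kb. The acinar gene CPA1 had the highest of these levels, at 298.4 per kb near the beta-cell median of 320.7, and a log2 fold change of 0.19 (SE 0.069, adjusted p = 0.0172). The leukocyte gene PTPRC stood at -0.35 (SE 0.19, adjusted p = 0.130). The ductal gene KRT19 (-0.74, SE 0.078) and the islet hormone gene SST (-0.86, SE 0.29) were lost, and the defining markers of fibroblasts, COL1A1 and COL1A2, and of endothelium, PECAM1 and VWF, had none. The part of other cells in the values at AP-1 genes was not tested. Rb regions specific to senescent cells overlapped 0 of the 40 AP-1 gene peaks, of which 20 were H3K27ac and 20 CTCF peaks. Among all 51489 H3K27ac peaks, 356 overlapped such a region, and no such count was made over all CTCF peaks. Because such overlaps were rare, a count of 0 does not set the AP-1 gene peaks apart. Of the genes, 3 of the 9 had an Rb region within 100 kb of the canonical start: FOSL1 at 74.2 kb, JUN at 84.1 kb and BATF3 at 91.5 kb. The share of all genes with an Rb region at that distance was not counted, so 3 of 9 cannot be called high or low.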

How the data were processed

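Per the study's methods, the authors aligned reads to hg38, called peaks against input (HOMER for H3K27ac, MACS2 for CTCF), and compared counts in peaks with DESeq2. Versions are not given in the sources used here. The deposited signal is the authors' mean of size-factor-scaled counts over 6 libraries. The deposited log2 fold change has a standard error, a Wald score equal to their ratio, and the authors' p-value and adjusted p-value. These columns of the authors' own comparison are the values the tables offer, so they were used as deposited and no model was refitted. A test on counts per library was therefore not run. Depth per library is not given by the tables, and precision is read from the standard errors, with a median of 0.19 for H3K27ac and 0.29 for CTCF over all peaks. The size factors centre the tables on the typical peak, so a shift shared by most peaks cannot be seen.

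Peaks were assigned with GENCODE 44, with peaks next to a start site taking precedence, and overlaps needed 1 bp. State means were derived from the mean and the fold change, with 3 libraries in each state. Adjusted p thresholds were 0.05 for H3K27ac and 0.2 for CTCF, with a fold above 1.5. The study's filter of CTCF peaks for the CTCF motif was not applied in the main counts. Of the CTCF peaks, 11972 had no adjusted p and stayed uncalled. The CTCF core spans 14 bases. All 24 chromosome names matched hg38. Statistics were tested on simulated data, with Python 3.11.15, numpy 2.4.6, pandas 2.3.3 and scipy 1.17.1. All start-site peaks and called peaks of the 9 genes were named, and up to 3 gained and 3 lost genes of each list. The members, lists and tests were chosen with earlier results of these data known.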

Additional observations from a re-analysis of the deposited data

How the results depend on the processing

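No paired analysis was possible because the deposited tables hold no value for a single library, and for the same reason no replicate could be left out and no other count test or normalization could be run. At a fold above 2 the count of AP-1 gene peaks lost was 1 for H3K27ac and 0 for CTCF, and a test against a fold of 1.5 gave the same counts. With no fold threshold, 7 H3K27ac peaks were lost and 1 gained, and 4 genes had a start-site peak lost and 1 gained. Fold changes centred on the peaks with the highest counts, a shift of 0.08 on the log2 scale, gave 5 peaks and 3 genes lost: FOS, FOSB and the JUN peak 32.7 kb upstream then passed 1.5-fold. CTCF peaks lost numbered 0 with the GC trend removed and 1 among peaks with the core motif. The share of peaks with a TRE was 5.0% in 300 bp around the centre, against 5.14% of all peaks. The other 41 comparisons of a count or share with an alternative, among them an adjusted p under 0.01 for H3K27ac and under 0.05 for CTCF, a minimum of 50 mean counts, a 50 kb limit and canonical start sites alone, moved by no more than 1.5-fold or the interval of the share. The largest of these moves in a count of lost H3K27ac peaks was from 2 to 3, with canonical start sites alone. Of single start-site peaks, JUNB, lower than 1.5-fold throughout, no longer had an adjusted p under 0.05 when centred, and JUND turned from 0.02 to -0.06. The H3K27ac value of FOSL2 went from -0.40 to -0.26 with the GC trend removed. The CTCF peaks of ATF3 and BATF3 were not called with the GC trend removed, and 4 uncalled CTCF values, at JUN, FOSL2 and JUND, turned from negative to positive. The H3K27ac loss at both ATF3 start-site peaks held under GC correction (-1.51 and -0.89) and centring (-1.67 and -0.94). Peaks under about 50 counts had standard errors near 0.3 or above, which limits what can be seen at the weakest distal peaks.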

Other observations

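Within 100 kb of the canonical start sites lay 53 further H3K27ac peaks and 59 further CTCF peaks that were closer to another gene. Of these H3K27ac peaks 2 were gained and 5 lost, and of the CTCF peaks 0 were gained and 1 was lost. Over all peaks 9.47% of H3K27ac peaks were gained and 13.1% lost, and 2.99% and 4.28% of CTCF peaks. Between ATF3 and BATF3, a peak nearest to GARIN4, 36.4 kb downstream of the canonical ATF3 start, was lost (log2 fold change -0.87, SE 0.24, adjusted p = 0.00114). Downstream of FOSL2 a peak nearest to PLB1, chr2:28438840-28441449, which overlapped enhancers of both states, was lost 46.0 kb from the FOSL2 start (-0.65, SE 0.11, adjusted p = 9.59e-08). Beside JUNB, a peak nearest to RNASEH2A, 14.3 kb away, was lost (-1.12, SE 0.15, adjusted p = 2.75e-13), and a peak nearest to MAST1, 46.3 kb away, was gained (1.00, SE 0.099, adjusted p = 2.94e-22). These peaks were chosen after their values were seen, and which gene they act on was not measured.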
